A study of Mus musculus with 9 samples.

Results

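The genes described here encode the main families of axon and cell guidance cues and their receptors: semaphorins with plexins and neuropilins, ephrins with Eph receptors, Slits with Robos, and netrins with Dcc and the Unc5 receptors. A list of 50 such genes was read in cerebella of C57BL/6 mice at postnatal day 5. Probe sets were matched to the list by their single gene symbol, and where a gene had several, the brightest on average over the 9 arrays was used. This found 44 of the 50, among 19147 genes measured in the same way. The genes Sema3f, Plxnb2, Plxnd1, Efna3, Ephb2 and Robo3 were not analysed here. Of the 44, 23 had more than 1 probe set.

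Total RNA of 3 groups was hybridised, with 3 arrays per group and a separate animal code on each array: wild type, SmoA2 and Smo/Smo. SmoA2 mice carry a transgene for an activated form of Smoothened, which relays Sonic hedgehog signals into the cell. Per the series' design text it is driven by the fragment of the Neurod2 promoter that is active in granule neuron precursors, so the transgene is meant to act in that lineage alone. The design text also describes a SmoA1 line with the same kind of transgene. The labels call the other mutant group only Smo/Smo, and it is read here as that line by elimination. They call the tissue brain, and the design text calls it cerebellum. No label says whether a line is 1 founder, and the Smo/Smo animal codes begin differently from the rest, so for that group source and genotype cannot be told apart. Wild type held 1 male and 2 females and each mutant group 2 males and 1 female, read from Xist and Y-linked probe sets.

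Values are log2 intensities. Background is taken as the highest value of a Y-linked probe set in a female (5.57). None of 15 granule neuron progenitor markers was at or under it in all arrays of any group. Of 9 forebrain markers 5, and of 12 markers of brainstem and deep nuclei 6, were at or under it in all 9 arrays. Array medians lay between 91.0 and 95.1 on the linear scale, and arrays correlated with each other at 0.994 to 0.998 across probe sets. Wild type replicate 3 stood apart in choroid plexus RNA, with Ttr, the transthyretin gene, at 4.95 against 11.3 to 12.1 in the other 8 arrays. SmoA2 replicate 3 had the lowest weight of any array, 0.386, in limma's array weights. Results below are given with and without these 2 arrays where they bear on a call. Gli1, the transcription factor that hedgehog signalling induces, rose in SmoA2 by 0.50 ± 0.07 (SE, n = 3 per group, limma adjusted p = 0.00801), and its difference in Smo/Smo was 0.08 ± 0.07 (0.825).

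Guidance cues steer growth cones and migrating neurons by attraction or repulsion. Semaphorins bind plexins, and the secreted class 3 members mostly need a neuropilin as co-receptor. Ephrins are held on the cell surface and signal to Eph receptors on touching cells, with signals running in both directions. Slits repel through Robos, while netrins attract through Dcc and repel through the Unc5 receptors. In the cerebellum, Sema6a and Plxna2 act in the inward migration of granule neurons, and loss of Unc5c lets granule cells stray beyond the cerebellar border.

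In SmoA2 against wild type, 3 of the 44 genes rose and 3 fell, and 38 had no call. The repellent ligand genes Sema3e, Slit1 and Slit3 rose, and the ephrin gene Efnb2, the receptor gene Epha7 and the netrin gene Ntn4 fell. A call is an adjusted p under 0.05 in limma, with Benjamini-Hochberg adjustment over all 19147 genes. Over all genes, 0.961% were called higher and 1.73% lower in this comparison. The arrays of the 2 groups did not overlap for 9 genes higher and 10 lower in SmoA2, against 8.89% and 10.2% of all genes. At an unadjusted p under 0.05 limma had 9 higher and 9 lower, against 6.61% and 8.18% of all genes. In Smo/Smo against wild type, 0 of 44 were called in either direction, against 0.214% of all genes higher and 0.157% lower. At an unadjusted p under 0.05 limma had 2 higher, Sema3e and Epha8, and 2 lower, Sema5a and Plxna4, against 4.89% and 3.88% of all genes, so these counts are near the background. Groups did not overlap there for 4 genes higher and 6 lower, against 7.82% and 8.12% of all genes. In SmoA2 against Smo/Smo, 3 genes were called higher, again Sema3e, Slit1 and Slit3, and 0 lower, against 1.02% and 1.54% of all genes. At an unadjusted p under 0.05, 7 were higher and 7 lower, against 6.2% and 8.12% of all genes. Groups did not overlap for 6 genes higher and 7 lower, against 8.12% and 10.1% of all genes. The 2 comparisons with wild type share their control arrays, and the 2 with SmoA2 share the SmoA2 arrays. Both mutant lines had median log2 fold changes over the 44 genes near that of all genes: -0.03 in SmoA2 and -0.04 in Smo/Smo, against 0.006 and 0.006.

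**Figure D1:**
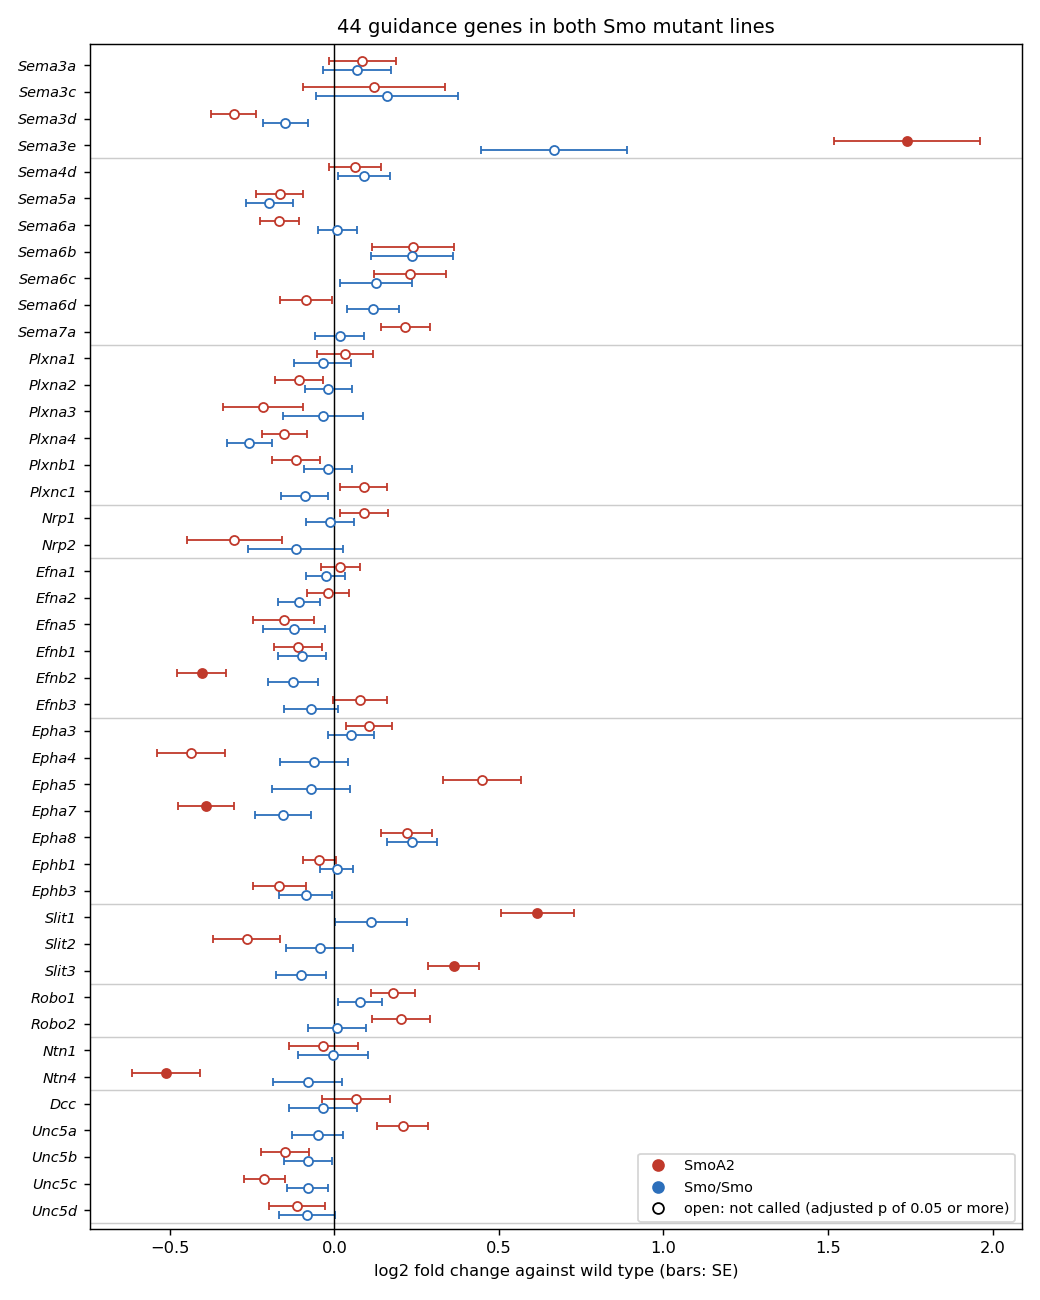
Log2 fold change against wild type of the 44 measured guidance genes, by family, in SmoA2 (red) and Smo/Smo (blue). Bars are standard errors from the fit of all 9 arrays, and filled points are called at an adjusted p under 0.05. The 6 filled points all belong to SmoA2: Sema3e, Slit1 and Slit3 lie above 0, and Efnb2, Epha7 and Ntn4 lie below it.

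Promoter sequences from RefSeq (build GRCm38.p6, from 250 bases before to 50 after the annotated start) were at hand for 36 of the 44 genes. They are shown for 2 genes that rose, Sema3e and Slit3, and 2 that fell, Efnb2 and Ntn4, since these pairs moved in the same direction. Capitals mark matches to a motif of proneural basic helix-loop-helix factors, CAGNTG, searched on both strands, and the bases are otherwise in lower case.
Sema3e (chr5:14025026-14025325, + strand): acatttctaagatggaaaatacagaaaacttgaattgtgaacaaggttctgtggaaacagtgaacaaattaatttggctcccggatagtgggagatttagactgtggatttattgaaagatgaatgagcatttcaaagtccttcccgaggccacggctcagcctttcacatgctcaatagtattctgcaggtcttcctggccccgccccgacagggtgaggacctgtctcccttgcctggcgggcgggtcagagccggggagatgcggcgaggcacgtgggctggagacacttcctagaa
Slit3 (chr11:35121206-35121505, + strand): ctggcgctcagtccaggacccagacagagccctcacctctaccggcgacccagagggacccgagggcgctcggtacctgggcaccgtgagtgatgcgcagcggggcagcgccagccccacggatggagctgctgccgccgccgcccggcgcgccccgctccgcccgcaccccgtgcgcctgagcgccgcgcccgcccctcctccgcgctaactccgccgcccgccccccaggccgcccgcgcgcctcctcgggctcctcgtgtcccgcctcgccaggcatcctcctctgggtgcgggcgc
Efnb2 (chr8:8661193-8661492, - strand): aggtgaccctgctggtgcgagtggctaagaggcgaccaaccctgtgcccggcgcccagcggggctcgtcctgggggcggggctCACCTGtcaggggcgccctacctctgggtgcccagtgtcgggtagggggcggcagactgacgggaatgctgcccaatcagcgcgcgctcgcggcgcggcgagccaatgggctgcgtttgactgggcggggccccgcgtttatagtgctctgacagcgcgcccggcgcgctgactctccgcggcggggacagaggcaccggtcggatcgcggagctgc
Ntn4 (chr10:93640799-93641098, + strand): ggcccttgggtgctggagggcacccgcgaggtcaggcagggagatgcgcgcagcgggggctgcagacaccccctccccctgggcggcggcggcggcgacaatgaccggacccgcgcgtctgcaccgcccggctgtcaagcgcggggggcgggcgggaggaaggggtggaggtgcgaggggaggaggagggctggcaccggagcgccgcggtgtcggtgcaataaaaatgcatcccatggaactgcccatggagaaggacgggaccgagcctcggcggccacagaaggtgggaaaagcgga
The consensus site of the Gli factors, GACCACCCA, was in none of the 36 genes' windows, and in 0.253% of all 32851 windows of this length. Its core CCACCCA, which the full site contains, was in the windows of 5 of 36 genes, Plxna2, Robo2, Sema3c, Sema5a and Sema6c, and in 9.30% of all windows. None of these 5 was called in any comparison. CAGNTG was in the windows of 12 of 36 genes and in 51.4% of all windows, and of the 4 sequences shown only that of Efnb2 held it, as CACCTG at position -167 from the start site. GC content was 50.7% in the Sema3e window, 78.3% in that of Slit3, 72.3% in that of Efnb2 and 72.0% in that of Ntn4. A gene was counted if any of its windows matched, and some genes had several, while the shares of all windows count single windows. The 2 measures are therefore not alike. A match is a description of these letters, and sites farther away were not searched.

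Among the class 3 semaphorins, secreted ligands of plexins and neuropilins, Sema3e was higher in all 3 SmoA2 arrays. Sema3e, which signals through Plxnd1 and is best known as a repellent of growing vessels and axons, read 5.01, 5.07 and 4.99 in wild type. It read 6.58, 6.82 and 6.89 in SmoA2, and 6.26, 5.63 and 5.19 in Smo/Smo. The wild type arrays lay at background, every SmoA2 array lay above every Smo/Smo array, and the Smo/Smo arrays were the most widely spread, with an SD of 0.54. The rise in SmoA2 was 1.74 ± 0.22 on the log2 scale, at least 3.34-fold since the wild type level is at background (n = 3 per group, limma adjusted p = 0.00431). Leaving out any 1 of the 9 arrays kept the call (largest adjusted p 0.0226), and it was lost without the pair of arrays named above, wild type 3 and SmoA2 3 (1.66, adjusted p = 0.0698). In Smo/Smo, where replicate 3 was at background, the difference from wild type was 0.67 ± 0.22 (adjusted p = 0.409). It was 0.38 without Smo/Smo replicate 1 and 0.92 without Smo/Smo replicate 3.

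SmoA2 exceeded Smo/Smo in Sema3e by 1.07 ± 0.22 (limma adjusted p = 0.0420), with 1 of the 3 Smo/Smo arrays at background. Leaving out 1 array ended that call in 8 of 9 cases (adjusted p 0.0671 to 0.140). It was kept without Smo/Smo replicate 1, the array with the highest Sema3e of its group (1.36, adjusted p = 0.00498), and lost without both wild type 3 and SmoA2 3 (1.01, adjusted p = 0.155).

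Sema3d, another class 3 ligand, read 9.07, 9.07 and 9.10 in wild type, 8.86, 8.67 and 8.80 in SmoA2 and 8.94, 8.84 and 9.01 in Smo/Smo. Both mutant groups lay below wild type without overlap. The differences were -0.31 ± 0.07 (limma adjusted p = 0.0540) in SmoA2 and -0.15 ± 0.07 (0.583) in Smo/Smo, short of a call. Sema3a, the classical growth cone collapsing ligand, and Sema3c differed from wild type by 0.09 and 0.12 in SmoA2 and by 0.07 and 0.16 in Smo/Smo, and their groups overlapped.

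Of the 7 other semaphorins, which are membrane-bound, none was called in a comparison. Sema6a, the transmembrane ligand of Plxna2 and Plxna4, had the smallest p of these. It read 11.51, 11.55 and 11.55 in wild type, 11.39, 11.43 and 11.30 in SmoA2, and 11.48, 11.58 and 11.59 in Smo/Smo. The SmoA2 arrays lay below all 6 others, by -0.17 ± 0.06 against wild type (limma adjusted p = 0.220) and -0.18 ± 0.06 against Smo/Smo (0.200). Its other probe sets gave -0.20 and -0.008 against wild type, and only the first was without overlap. Against Smo/Smo they gave -0.09 and -0.11, and both overlapped. Sema7a, a ligand anchored in the membrane by a lipid, was higher without overlap in SmoA2, by 0.22 ± 0.07 (0.206). Sema4d, Sema5a, Sema6b, Sema6c and Sema6d ranged from -0.17 to 0.24 in SmoA2 and from -0.20 to 0.24 in Smo/Smo.

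None of the 6 plexins and neither neuropilin was called. Plxna4, a receptor for class 3 and class 6 semaphorins, read 7.40, 7.34 and 7.36 in wild type, 7.19, 7.33 and 7.12 in SmoA2, and 7.17, 7.04 and 7.11 in Smo/Smo. Wild type lay above every mutant array, by little in the case of SmoA2 replicate 2. The differences were -0.26 ± 0.07 in Smo/Smo (limma adjusted p = 0.247) and -0.15 ± 0.07 in SmoA2 (0.346). The other plexins, among them Plxna2, the Sema6a receptor of granule neurons, ranged from -0.22 to 0.09 in SmoA2 and from -0.09 to -0.02 in Smo/Smo. Plxna2 itself gave -0.11 in SmoA2, with overlap. Its other probe set was lower in SmoA2 than in both other groups without overlap, short of a call. In a fit over all single probe sets it gave -0.21 against wild type (limma adjusted p = 0.214) and -0.17 against Smo/Smo (0.334).

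Nrp2, the co-receptor preferred by Sema3c and Sema3f, read 9.19, 9.17 and 9.02 in wild type, 8.99, 9.02 and 8.46 in SmoA2, and 8.88, 8.98 and 9.16 in Smo/Smo. The low SmoA2 value came from SmoA2 replicate 3, and the groups overlapped (-0.30 ± 0.14, limma adjusted p = 0.372). Its 3 other probe sets gave -0.23, -0.20 and -0.49 in SmoA2, and the last passed in a fit over all single probe sets (adjusted p = 0.0232). That probe set lay at background in the mutants, with means of 5.21 and 5.18 against 5.71 in wild type. With the mean of all 4, Nrp2 was called lower in SmoA2 (-0.31, adjusted p = 0.0358). Nrp1, the co-receptor of Sema3a, differed by 0.09 in SmoA2 and -0.01 in Smo/Smo.

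Among 6 ephrins, the ligands of Eph receptors, Efnb2 fell in SmoA2 and 5 had no call. Efnb2, a transmembrane ephrin of neural progenitors and arterial endothelium, read 10.33, 10.29 and 10.23 in wild type, 9.96, 9.93 and 9.76 in SmoA2, and 10.06, 10.18 and 10.24 in Smo/Smo. The SmoA2 arrays lay below all 6 others, and Smo/Smo overlapped wild type. Efnb2 fell by 0.40 ± 0.08 on the log2 scale, 1.32-fold (n = 3 per group, limma adjusted p = 0.0252). The difference from wild type in Smo/Smo was -0.13 ± 0.08 (0.715), and that between the mutants -0.28 ± 0.08 (0.107). The call in SmoA2 was lost without wild type replicate 1, 2 or 3, SmoA2 replicate 3 or Smo/Smo replicate 2 (adjusted p 0.0505 to 0.108), and without both wild type 3 and SmoA2 3 (-0.37, 0.0917). Efna1, Efna2, Efna5, Efnb1 and Efnb3 ranged from -0.15 to 0.08 in SmoA2 and from -0.12 to -0.03 in Smo/Smo. Values below wild type were seen for all 6 ephrins in Smo/Smo, none with an unadjusted p under 0.05 in limma. Arrays did not overlap for Efna5 and Efnb1, where the share of all genes lower without overlap was 8.12%. This was not particular to ephrins. The 6 plexins, 2 neuropilins, 2 netrins and 5 Dcc and Unc5 receptors also all lay below wild type in Smo/Smo. So did 29 of the 44 genes, and 9147 of all 19147 genes.

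Among the Eph receptors, tyrosine kinases that bind the ephrins, Epha7, a receptor for the A ephrins, fell in SmoA2, and 6 of the 7 measured had no call. It read 8.27, 8.13 and 8.41 in wild type, 7.85, 8.01 and 7.77 in SmoA2, and 8.07, 8.13 and 8.13 in Smo/Smo. The SmoA2 arrays were the lowest of the 9. Epha7 fell by 0.39 ± 0.09, 1.31-fold (n = 3 per group, limma adjusted p = 0.0484), the largest adjusted p of the 6 calls. In Smo/Smo it differed from wild type by -0.16 ± 0.09 (adjusted p = 0.677). The call was kept in only 1 of the 9 fits with an array left out, that without SmoA2 replicate 2, and its adjusted p in the other 8 was 0.0511 to 0.150. It also ended with quantile normalization (0.0791), with arrays centred on their medians (0.0715) with the mean of both probe sets (0.352) and without both wild type 3 and SmoA2 3 (-0.27, 0.205).

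Epha4, a receptor for both ephrin classes, read 10.24, 10.02 and 10.37 in wild type, 9.73, 9.94 and 9.66 in SmoA2, and 10.05, 10.19 and 10.19 in Smo/Smo. SmoA2 lay below the other groups without overlap, at -0.44 ± 0.10 from wild type (limma adjusted p = 0.0681). Epha5, which binds the A ephrins, stood the other way. It read 7.50, 7.05 and 7.45 in wild type, 7.87, 7.82 and 7.65 in SmoA2, and 7.33, 7.18 and 7.28 in Smo/Smo. SmoA2 lay above both other groups without overlap, at 0.45 ± 0.12 from wild type (adjusted p = 0.0937) and 0.52 ± 0.12 from Smo/Smo (0.0564). Its 2 other probe sets gave 0.46 and 0.37 against wild type, and 1 of them passed against Smo/Smo in the fit over all single probe sets (0.60, adjusted p = 0.0492). Epha8 was higher than wild type in both mutants without overlap, at 0.22 ± 0.08 in SmoA2 (0.210) and 0.24 ± 0.08 in Smo/Smo (0.396). Epha3, Ephb1 and Ephb3 ranged from -0.17 to 0.10 in SmoA2.

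The Slits, secreted repellents that bind Robos, were split in SmoA2: Slit1 and Slit3 rose, and Slit2 had no call. Slit1 read 7.59, 7.53 and 7.34 in wild type, 8.27, 8.11 and 7.93 in SmoA2, and 7.69, 7.67 and 7.43 in Smo/Smo. Every SmoA2 array exceeded every other, while Smo/Smo overlapped wild type. The rise was 0.62 ± 0.11, 1.53-fold (n = 3 per group, limma adjusted p = 0.0201), and against Smo/Smo it was 0.51 ± 0.11 (0.0491). The first call was lost without either of wild type replicates 2 and 3 or either of SmoA2 replicates 1 and 2 (adjusted p 0.0572 to 0.0702). It was also lost without the pair of arrays named above, wild type 3 and SmoA2 3 (0.63, adjusted p = 0.0533). With 1 array left out, the second was kept only without SmoA2 replicate 3 (0.59, adjusted p = 0.0402) and had 0.0571 to 0.145 in the other 8. It was also kept without both wild type 3 and SmoA2 3 (0.0437). The other Slit1 probe set, with a wild type mean of 5.81, gave 0.25 (0.358) against wild type and 0.09 (0.787) against Smo/Smo.

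Slit3 read 7.92, 7.93 and 7.86 in wild type, 8.18, 8.26 and 8.36 in SmoA2, and 7.91, 7.66 and 7.83 in Smo/Smo. Again the SmoA2 arrays were the 3 highest. Slit3 rose by 0.36 ± 0.08, 1.29-fold, against wild type (n = 3 per group, limma adjusted p = 0.0438) and stood 0.46 ± 0.08 above Smo/Smo (0.0166). Against wild type the call was lost in 7 of 9 fits with 1 array left out, all but those without Smo/Smo replicate 1 or 2 (adjusted p 0.0637 to 0.134). Against Smo/Smo it was lost without Smo/Smo replicate 2 (0.0636) or 3 (0.0588). Without both wild type 3 and SmoA2 3, both Slit3 calls were lost (0.29, 0.216 against wild type and 0.42, 0.0736 against Smo/Smo). Its other probe set gave 0.30 (0.0967) against wild type and 0.04 (0.881) against Smo/Smo, since it was also higher in Smo/Smo than in wild type, by 0.26 (0.325). Slit2, a repellent made at the ventral midline, read 9.62, 9.65 and 9.49 in SmoA2, below the lowest wild type array at 9.77. Its difference was -0.27 ± 0.10 (0.259), opposite in sign to the other Slits.

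Of the Robos, the Slit receptors, Robo1 and Robo2 had no call. Robo1 read 11.89, 11.84 and 11.83 in wild type, 12.09, 12.11 and 11.90 in SmoA2, and 11.94, 11.92 and 11.94 in Smo/Smo. Both mutant groups lay above wild type, SmoA2 by 0.18 ± 0.07 (limma adjusted p = 0.245) and Smo/Smo by 0.08 ± 0.07 (0.805). Robo2 read 10.66, 10.66 and 10.35 in SmoA2 against 10.32 to 10.39 in wild type, and the low array was SmoA2 replicate 3. Its difference was 0.20 ± 0.09 (0.324), and without SmoA2 replicate 3 it was called higher. Its 3 other probe sets gave 0.26, 0.07 and 0.37.

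**Figure D2:**
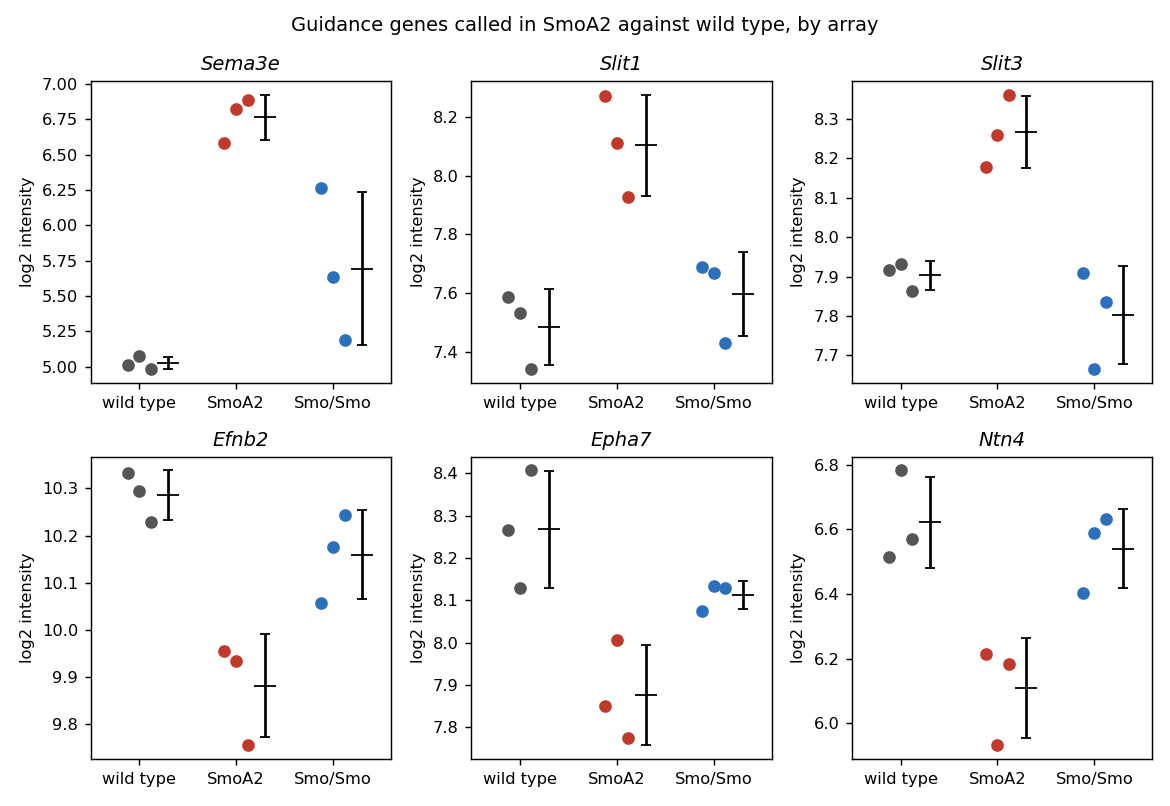
Log2 intensity of the 6 guidance genes called in SmoA2 against wild type, with 1 point per array and the group mean ± SD beside it (n = 3). SmoA2 arrays lie above all others for Sema3e, Slit1 and Slit3, and below all others for Efnb2, Epha7 and Ntn4. The y axes differ in range and do not start at 0.

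Of the netrins, Ntn4 fell in SmoA2 and Ntn1 had no call. Ntn4, a laminin-related netrin of basement membranes and vessels, read 6.51, 6.78 and 6.57 in wild type, 6.22, 5.93 and 6.18 in SmoA2, and 6.40, 6.59 and 6.63 in Smo/Smo. The SmoA2 arrays were the 3 lowest. Ntn4 fell by 0.51 ± 0.10, 1.43-fold (n = 3 per group, limma adjusted p = 0.0371). Its difference from wild type in Smo/Smo was -0.08 ± 0.10 (0.892), and SmoA2 stood -0.43 ± 0.10 from Smo/Smo (0.0715). The call was kept only without Smo/Smo replicate 1 (0.0428) among the 9 fits with an array left out, and had an adjusted p of 0.0578 to 0.121 in the other 8. Without both wild type 3 and SmoA2 3 it was lost as well (-0.57, 0.128). Ntn1, the netrin of the floor plate and ventricular zone, differed by -0.03 in SmoA2 and by -0.0043 in Smo/Smo.

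None of Dcc and the 4 Unc5 receptors was called. Unc5c, the repellent netrin receptor whose loss lets granule cells cross the cerebellar border, had the smallest p. It read 12.28, 12.32 and 12.36 in wild type, 12.18, 12.01 and 12.14 in SmoA2, and 12.25, 12.21 and 12.26 in Smo/Smo. SmoA2 was the lowest group without overlap, at -0.21 ± 0.06 (limma adjusted p = 0.133), and Smo/Smo also lay below wild type, at -0.08 ± 0.06 (0.783). Its other 2 probe sets gave -0.30 and -0.37 in SmoA2, and the second passed in the fit over all single probe sets (0.0388). Unc5a was higher in SmoA2 than in the other groups without overlap, at 0.21 ± 0.08 from wild type (0.249). Dcc, Unc5b and Unc5d gave 0.07, -0.15 and -0.11 in SmoA2 and -0.04, -0.08 and -0.08 in Smo/Smo. The other Dcc probe set, with a wild type mean of 10.21, was higher in SmoA2 than in both other groups without overlap. It gave 0.28 against wild type (0.269) and 0.34 against Smo/Smo (0.175) in the fit over all single probe sets, short of a call.

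**Figure D3:**
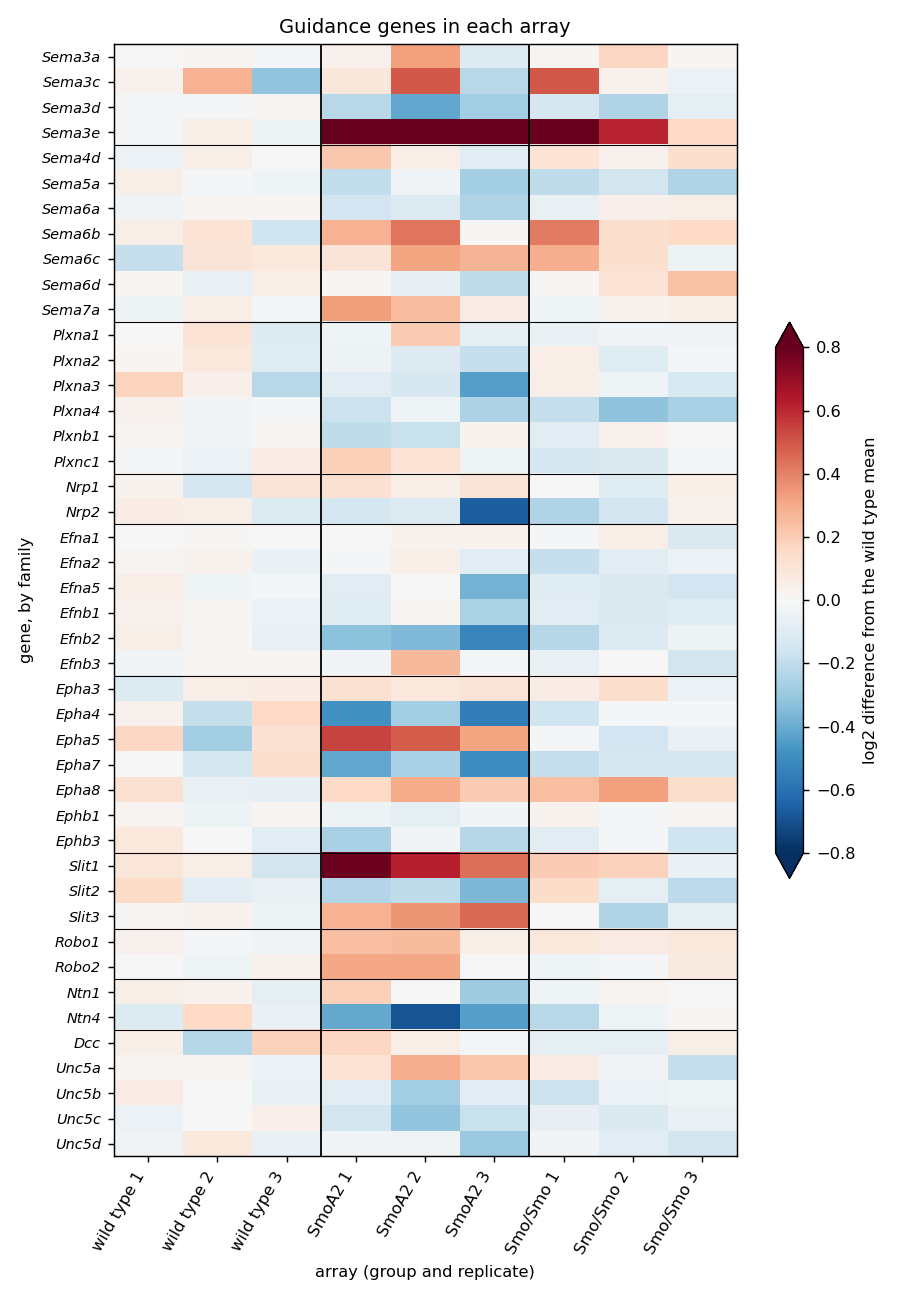
Each guidance gene's log2 difference from its wild type mean in each of the 9 arrays, by family. Red is above and blue below the wild type mean, and the colour is capped at 0.8 in either direction. Sema3e, Epha5, Slit1 and Slit3 are red in all 3 SmoA2 arrays, and Sema3d, Efnb2, Epha4, Epha7 and Ntn4 are blue in all 3.

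Related guidance genes outside the 50 were read from 4 lists. Of 15 other semaphorins, plexins and binding partners, 1 was called lower in SmoA2 and none higher, against 1.73% and 0.961% of all genes. Kdr, the VEGF receptor that also takes part in Sema3e signalling, fell by 0.30 ± 0.06 (n = 3 per group, limma adjusted p = 0.0401). More of the list lay lower short of a call. At an unadjusted p under 0.05 limma had 1 higher and 7 lower, against 6.61% and 8.18% of all genes. Arrays did not overlap for 1 higher and 9 lower, against 8.89% and 10.2% of all genes. Against Smo/Smo, SmoA2 was lower in Kdr (-0.36, 0.0198) and in Cntn2, an axonal adhesion molecule of early postmitotic granule neurons (-0.60, 0.0294). There limma had 0 of the 15 higher and 6 lower at an unadjusted p under 0.05, against 6.2% and 8.12% of all genes. None of 6 other ephrins and Eph receptors was called in any comparison. At an unadjusted p under 0.05 limma had none of these 6 either.

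Of 19 other netrins, Slit and Robo partners and repulsive guidance molecules, Draxin rose and Slitrk1 fell in SmoA2. At an unadjusted p under 0.05 limma had 4 of the 19 higher and 3 lower, against 6.61% and 8.18% of all genes. Draxin, a secreted repellent that binds Dcc, read 7.93 to 8.05 in wild type, 8.31 to 8.66 in SmoA2 and 7.91 to 8.09 in Smo/Smo. The rise was 0.47 ± 0.09 (limma adjusted p = 0.0322), and 0.48 ± 0.09 against Smo/Smo (0.0314). Slitrk1, a synaptic adhesion molecule, fell by 0.26 ± 0.05 (0.0419), and Slitrk4 was higher in SmoA2 than in Smo/Smo by 0.35 ± 0.07 (0.0446).

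Of 39 intracellular effectors of guidance receptors, 28 lay below wild type in SmoA2 and 11 above, with a median of -0.06 against 0.006 for all genes. Among all 19147 genes, 9162 lay below and 9985 above. At an unadjusted p under 0.05 limma had 5 higher and 5 lower, against 6.61% and 8.18% of all genes. Arrays did not overlap for 5 higher and 11 lower, against 8.89% and 10.2% of all genes. Calls went to 3 genes higher and none lower, against 0.961% and 1.73% of all genes. These were Mical1 (0.56 ± 0.09, limma adjusted p = 0.0101) and Mical2 (0.42 ± 0.07, 0.0139), oxidases that take actin filaments apart downstream of plexins, and Dpysl4, a collapsin response mediator (0.39 ± 0.08, 0.0347). Dpysl4 read 10.84 to 10.92 in wild type, 11.16 to 11.36 in SmoA2 and 10.35 to 10.59 in Smo/Smo, so the mutant groups lay on opposite sides of wild type without overlap. SmoA2 exceeded Smo/Smo in Dpysl4 by 0.81 ± 0.08 (0.00152), and was lower in Tiam1, a Rac exchange factor, by -0.37 ± 0.06 (0.0118). In Smo/Smo against wild type none of the genes in these 4 lists was called. At an unadjusted p under 0.05, limma had 1, 0, 1 and 5 of them higher and 0, 0, 2 and 2 lower, in the order of the lists, where the shares of all genes were 4.89% and 3.88%. Dpysl4 came nearest there, at -0.42 ± 0.08 (0.0888).

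Markers of several cell types moved with SmoA2 beside the guidance genes. Fewer cells of a type and less RNA per cell cannot be told apart in whole tissue. The share of all genes called in SmoA2 against wild type was 0.961% higher and 1.73% lower. Of 13 Purkinje cell markers 4 fell and none rose in limma, and their summed intensity, in units of 1000, was 25.4 to 28.3 in SmoA2 against 32.9 to 34.5 in wild type and 33.0 to 34.0 in Smo/Smo. Of 9 markers of GABAergic interneurons 4 fell and 1 rose, with sums of 8.91 to 9.30 against 10.6 to 11.3 in wild type. Bergmann glia and astrocytes had 4 of 17 markers lower and none higher (56.5 to 58.7 against 62.9 to 66.5). Meninges and fibroblasts had 10 of 18 lower and none higher (21.1 to 24.0 against 27.6 to 28.5), and of 13 endothelial and mural markers 2, Tek and Kdr, fell and none rose (6.94 to 7.32 against 7.82 to 8.02). Of 15 granule neuron progenitor markers 6 rose and 1 fell (59.8 to 63.5 against 57.4 to 59.2). Those that rose were Atoh1, Ccnd1, Ptch1, Boc, Sfrp1 and Gli1, the last being induced by hedgehog signalling itself, and Barhl2 fell. Of 13 markers of postmitotic granule neurons 1 rose and none fell (34.8 to 36.0 against 37.4 to 37.5). Short of a call, 10 of the 13 lay below wild type. At an unadjusted p under 0.05 limma had 1 higher and 5 lower, against 6.61% and 8.18% of all genes. Grin2c, the gene that rose, was also called higher in Smo/Smo (0.71, limma adjusted p = 0.0102). No marker on these 7 lists was at background in every array. The part of these shifts in the rises of Sema3e, Slit1 and Slit3 and the falls of Efnb2, Epha7 and Ntn4 was not tested.

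None of 10 microglia, 9 oligodendrocyte, 11 choroid plexus or 12 brainstem markers was called in SmoA2 against wild type in limma. At an unadjusted p under 0.05 they had 4, 2, 10 and 2 higher and 0, 1, 0 and 1 lower. The shares of all genes there were 6.61% higher and 8.18% lower. Of 9 forebrain markers 1, Tbr1, fell. The choroid plexus sum was 2.05 to 6.61 in wild type, with wild type replicate 3 the low array, 8.79 to 10.4 in SmoA2 and 10.6 to 12.1 in Smo/Smo. Microglia sums were 4.30 to 4.82, 4.89 to 6.12 and 3.64 to 4.28 in wild type, SmoA2 and Smo/Smo, while oligodendrocyte sums overlapped between all groups, from 10.3 to 11.3 in wild type and from 10.6 to 11.4 in SmoA2. Brainstem sums were 3.58 to 3.76, 3.24 to 3.65 and 3.24 to 3.80 in the same order, and forebrain sums 0.338 to 0.374, 0.315 to 0.347 and 0.343 to 0.355. In Smo/Smo against wild type the summed Purkinje, GABAergic interneuron and Bergmann glia levels overlapped wild type. The meningeal sum there, 26.4 to 27.5, and the microglia sum lay below all wild type arrays, and the choroid plexus sum and the endothelial sum, 8.29 to 8.60, lay above them. Without wild type replicate 3, the array low in choroid plexus RNA, only Sema3e of the 44 guidance genes was called in SmoA2 (1.72, adjusted p = 0.0218). With sex as a covariate, Sema3e, Slit1 and Ntn4 kept their calls against wild type, Slit3, Efnb2 and Epha7 lost them, and Epha5 gained one. Against Smo/Smo, Slit3 kept its call, Sema3e and Slit1 lost theirs, and Epha5 gained one.

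**Figure D4:**
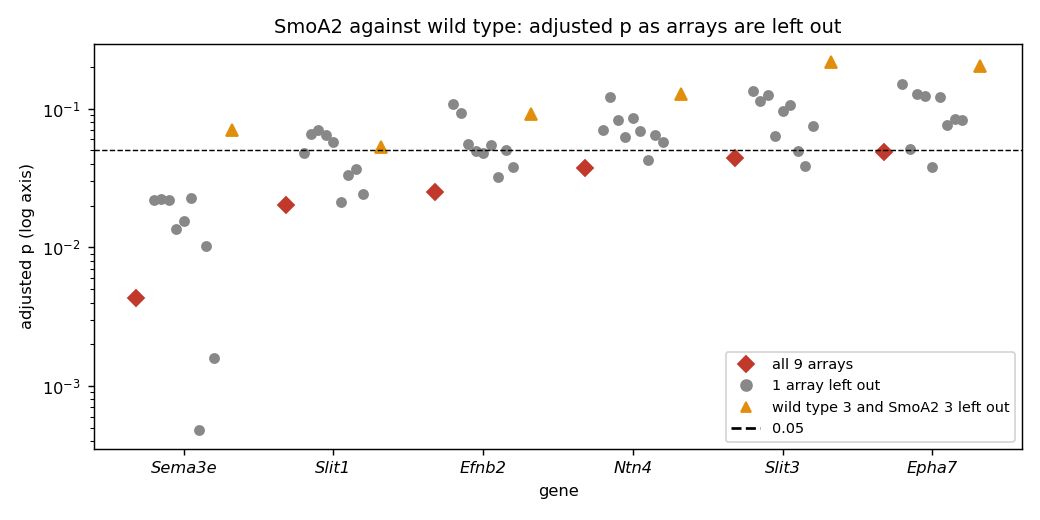
Adjusted p (log axis) of the 6 called guidance genes in SmoA2 against wild type, with all 9 arrays (diamonds), with 1 array left out (circles) and without the pair of arrays named above, wild type 3 and SmoA2 3 (triangles). The dashed line is 0.05. All 9 circles of Sema3e lie below the line, while 8 of 9 for Epha7 and Ntn4 lie above it.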

How the data were processed

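Total RNA of mouse cerebellum was read on Affymetrix arrays, 9 in all. The deposited values are probe set intensity, made by RMA per the labels' processing notes, with version and other steps not given in the sources used here. They lie on a linear scale with nearly equal distributions, so log2 was taken, where log2 values had been planned for. RMA shrinks low values together, which understates changes near background. Of 38385 probe sets, 24478 carried 1 gene symbol, 65 several and 13842 none in the platform annotation supplied. All 44 members' Entrez numbers matched RefSeq.

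limma 3.58.1 in R 4.3.3 (lmFit, eBayes) fitted a mean per group over all 19147 genes and 9 arrays, without covariates. Errors are standard errors of this fit. The p-values test group differences against the spread between arrays within groups, which eBayes moderates over all genes. The members and lists were chosen with earlier results of these data known. Genes described in full were those called and the smallest p of each family. Others were chosen after their values were seen. Of related genes, up to 4 called per list and comparison were named. The alternatives were other probe set choices, a filter on low values, quantile normalization, median centring, a trended robust fit, array weights, fewer arrays, stricter thresholds and sex as a covariate. The fit was tested on simulated data. Figures used Python 3.11.15 and matplotlib 3.10.9. With arrays, precision is limited by their number.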

Additional observations from a re-analysis of the deposited data

Results flagged for a closer look

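The direct comparison of the mutant lines called 3 guidance genes, each by limma's test of the difference itself. Sema3e was 1.07 higher on the log2 scale in SmoA2 than in Smo/Smo, where 1 of the 3 arrays was at background, Slit1 0.51 higher and Slit3 0.46 higher. Their limma adjusted p was 0.0420, 0.0491 and 0.0166 in this order. With 1 array left out, the calls of Sema3e and Slit1 were each lost in 8 of 9 fits, and that of Slit3 in 2. The other probe sets of Slit1 and Slit3 gave 0.09 and 0.04. Each of the 3 genes was higher in every SmoA2 array than in every Smo/Smo array, as were 6 of the 44 genes and 8.12% of all genes. The Smo/Smo animals carry another code prefix, so that source and line cannot be told apart.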

How the results depend on the processing

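Directions of the 11 guidance genes described in full did not reverse for any call under the alternatives run, but none of the 9 calls held under all of them. With 1 array left out, 1 to 5 genes were called in SmoA2 against wild type and 0 to 3 in SmoA2 against Smo/Smo, in place of 6 and 3, and 0 in Smo/Smo against wild type. Some of these counts include Epha4, Epha5 or Robo2, which had no call with all arrays. With only the 6 arrays compared, 1 and 1 were called, Sema3e against wild type and Epha5 against Smo/Smo. All 3 main calls against Smo/Smo were therefore lost in that setting. With an adjusted p under 0.01 there were 1 and 0, and with a change of at least 1.5-fold 2 and 1. Dropping wild type replicate 3 together with SmoA2 replicate 3 left 0 and 1. More were called with a filter on low values, 8 and 5, and with the trended robust fit, 9 and 6, while array weights gave 5 and 5. Fewer arrays leave fewer degrees of freedom, and the filter tests fewer genes. Of 396 values with another setting than 1 array left out, 44 lost a call and 5 gained it. With 1 array left out, 50 of 297 values lost a call. These values cover all 11 genes in all comparisons. Only the values of the 9 calls could lose one, so the losses are a larger share of the calls than of the values. Smo/Smo against wild type gave 0 calls in all 12 settings other than 1 array left out. No paired analysis was possible because the labels give no replicate number shared between groups. Genes near background, such as Sema3e in wild type, are limited by signal over background.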
